A study of Mus musculus with 6 samples.

Results

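The genes described here are 7 genes of the cell's response to viral RNA and interferon: Ddx58, Ifih1, Dhx58, Rtp4, Samd9l, Mx1 and Irf7. Ddx58 (RIG-I) and Ifih1 (MDA5) encode helicases of the cytoplasm that bind viral RNA and signal through the adaptor MAVS, and Dhx58 (LGP2) encodes a related helicase without signalling domains that modulates them. The signal activates the transcription factors IRF3 and IRF7, which switch on type I interferon. Interferon then acts through its receptor, JAK kinases and STAT factors on genes with an interferon-stimulated response element, among them all of these sensors, the effector genes Rtp4, Samd9l and Mx1, and Irf7 itself. In blood stem cells interferon signalling is known for driving resting cells into cycle, and interferon alpha has been used to treat chronic myeloid leukaemia.

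The members were chosen because several of them had opposite differences in LSC minus HSC and in Alox5-/- LSC minus LSC. The values below are the ones that chose them, so they are given as a description, without tests. Each of the 7 symbols belonged to exactly 1 probe set among those with a single symbol, so 7 probe sets of 34499 with values, and 7 of 19934 genes, are described. None was lost to a filter, since no filter on low values was set.

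The data are 6 Affymetrix whole-transcript arrays of mouse marrow cells sorted as Lin-c-Kit+Sca-1+, a phenotype of blood stem cells and their early progeny, with 2 arrays in each of 3 groups. Donor marrow came from wild-type C57BL/6 (B6) or Alox5-/- mice given 5-fluorouracil, was infected with a retrovirus and was transplanted into B6 recipients, and cells were sorted 14 days later. HSC denotes wild-type cells that do not express BCR-ABL, labelled as vector samples. LSC denotes GFP-positive wild-type cells with BCR-ABL, the fusion kinase of chronic myeloid leukaemia, and Alox5-/- LSC denotes such cells from Alox5-/- marrow. Alox5 encodes 5-lipoxygenase, the enzyme that starts leukotriene synthesis. The strain label is C57BL/6 (B6) and the age label 8 weeks in all groups. BCR-ABL comes from the retrovirus, and the recipients of Alox5-/- marrow had Alox5. An Alox5-/- group without BCR-ABL was not analysed here. The labels call the arrays biological replicates, without the number of animals behind each, so the spread given is that between these arrays.

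The unit of the deposited score is not stated. Scores ran from 0 to 62.1, and 33.5% to 53.7% of the probe sets on an array lay above 16, the highest value that log2 of a 16-bit scan can take. Array medians ran from 14.5 (Alox5-/- LSC replicate 2) to 16.4 (HSC replicate 2). The median difference over all genes was -0.47 for LSC minus HSC, -0.30 for Alox5-/- LSC minus LSC and -0.78 for Alox5-/- LSC minus HSC. The direction of the score relative to expression could not be settled. In 19 cytosolic ribosomal protein genes, which every cell uses, the median was 20.3 with the highest-mean probe set of each gene and 6.27 with the lowest-mean one, against 16.3 and 16.1 for all genes. In 1026 olfactory receptor genes, a set added after the values were seen, it was 16.1 with either. "Higher" and "lower" below therefore refer to the score and not to RNA. Kit, the measured gene of the gate, scored 12.6 and 15.4 in HSC, 11.15 and 14.5 in LSC and 11.5 and 10.5 in Alox5-/- LSC. Ly6a, which encodes Sca-1, was not among the genes analysed here. Alox5 scored 12.6 and 19.9 in HSC, 13.2 and 14.2 in LSC, and 14.4 and 13.5 in Alox5-/- LSC. A probe set of this kind may hold probes outside the deleted part, which was not tested. Bcr and Abl1, the genes joined in the fusion, differed by 0.63 and 0.28 in LSC minus HSC (limma adjusted p = 0.999 for each).

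Over the 7 genes, the LSC mean was the highest of the 3 group means for Ddx58, Ifih1, Rtp4 and Samd9l (a pattern of 28.0% of all genes) and the lowest for Dhx58, Mx1 and Irf7 (32.6%). All 7 therefore had opposite signs in the first 2 comparisons, as did 60.6% of all genes. Both comparisons use the LSC arrays, so a high or low LSC array moves them in opposite directions. Samd9l, Rtp4 and Ddx58 had both LSC arrays above the other 4 arrays, a pattern held by 4.8% of all genes. Dhx58 had both below them, as did 4.97% of all genes. These are orders of the deposited scores, and for Dhx58 and Mx1 they changed with centring or quantile normalization, as given below. The rule used these contrasts, and nothing is read from these shares.

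**Figure D1:**
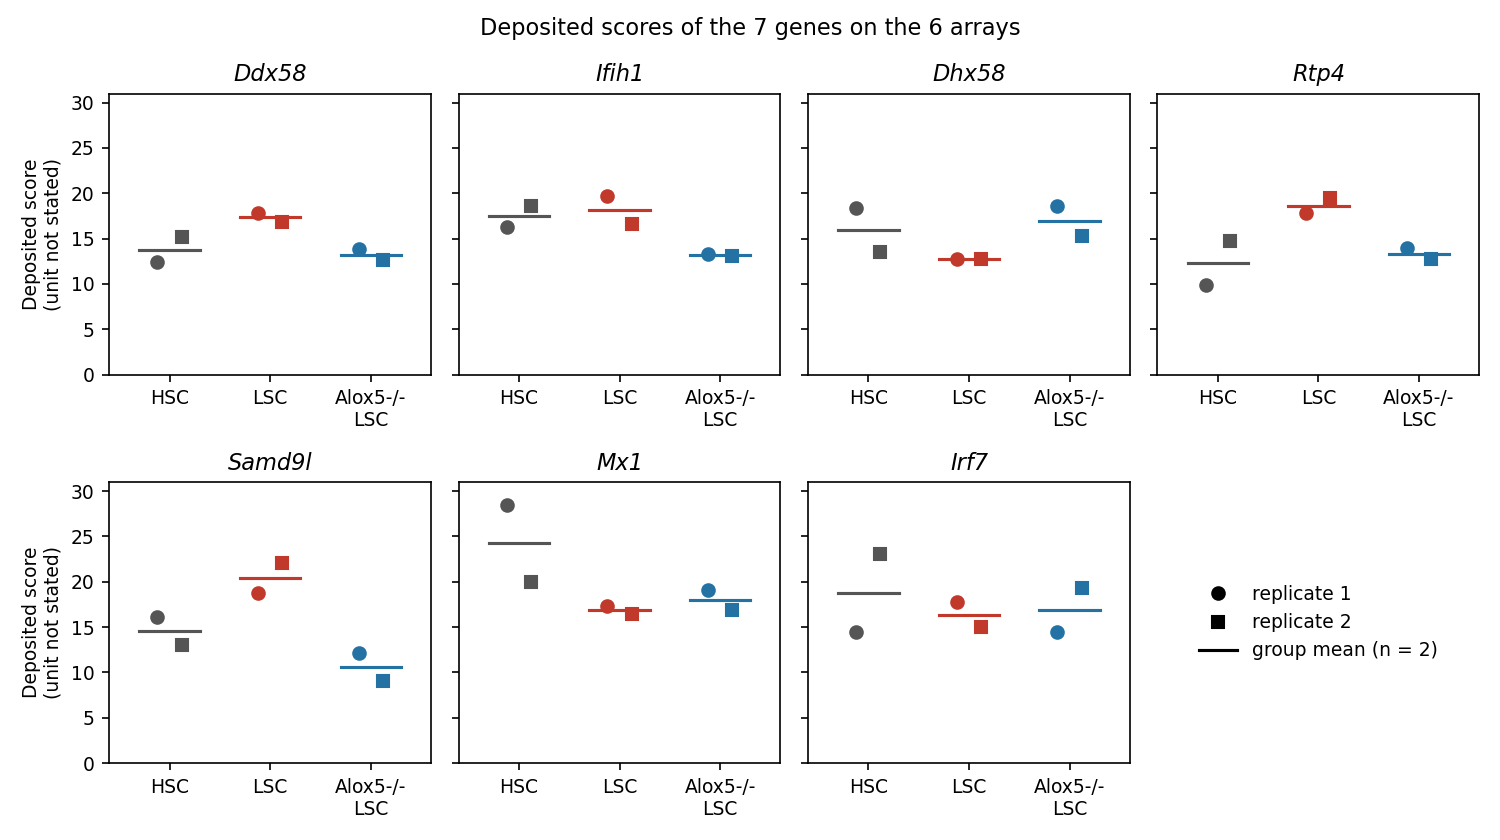
Deposited score (unit not stated) of each of the 7 genes on every array, with HSC in grey, LSC in red and Alox5-/- LSC in blue, circles for replicate 1, squares for replicate 2 and a line for the mean of n = 2. Both LSC points lie above all others for Ddx58, Rtp4 and Samd9l and below all others for Dhx58, while the HSC points of Mx1 (28.5 and 20.0) and Irf7 (14.5 and 23.1) lie far apart.

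The RNA sensors did not share 1 pattern. Ddx58, which recognises short RNA with a 5′ triphosphate, scored 12.4 and 15.2 in HSC, 17.8 and 16.9 in LSC, and 13.8 and 12.7 in Alox5-/- LSC. The LSC arrays were the highest pair and the other groups overlapped each other. The difference LSC minus HSC was 3.56, Alox5-/- LSC minus LSC was -4.12, and the SD within groups was 1.95, 0.69 and 0.83 in HSC, LSC and Alox5-/- LSC (n = 2 each). Alox5-/- LSC minus HSC was -0.56, and it was 0.32 with each array centred on its median and 0.40 after quantile normalization, so its direction is not fixed.

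Ifih1, which recognises long double-stranded RNA, scored 16.2 and 18.6 in HSC, 19.7 and 16.6 in LSC, and 13.3 and 13.1 in Alox5-/- LSC. Here the Alox5-/- LSC arrays stood apart as the lowest pair, and HSC and LSC overlapped. Their mean differed from LSC by -4.92 and from HSC by -4.22. Between LSC and HSC the difference was 0.69, less than the SD within either group (1.71 in HSC and 2.17 in LSC), and its sign turned when HSC replicate 1 (-0.51) or LSC replicate 1 (-0.84) was left out.

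Dhx58 ran against the other sensors. It scored 18.4 and 13.5 in HSC, 12.8 and 12.7 in LSC, and 18.6 and 15.2 in Alox5-/- LSC. As deposited, the LSC arrays were the lowest pair and differed by less than 0.01, but HSC replicate 2 lay only slightly above them. HSC replicate 1 lay among the Alox5-/- LSC arrays. Centred on array medians, HSC replicate 2 (-2.86) lay below both LSC arrays (-2.71 and -2.76). After quantile normalization HSC replicate 2 (12.80) lay between the LSC arrays (12.84 and 12.64), so that LSC and HSC overlapped. The LSC mean differed from HSC by -3.20, and leaving out HSC replicate 2 gave -5.64 where leaving out HSC replicate 1 gave -0.76. Against LSC, the Alox5-/- LSC mean was 4.15 units higher, or 2.49 and 5.81 units on its second or its first replicate alone.

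The starts of 4 of these genes could be read from RefSeq (build GRCm38.p6, 250 bases before to 50 bases after the start site): Ddx58, Ifih1, Samd9l and Irf7. Dhx58, Rtp4 and Mx1 had no entry. They were searched on both strands for the core of the interferon-stimulated response element (GAAA, any 2 bases, GAAA) and for its shorter form GAAANNGAA, which every match of the longer form also contains. The longer form was found in 2 of the 4, Ddx58 and Ifih1, and the shorter also in Samd9l. Neither was found in the Irf7 window. The windows of 30 bases around each match are shown because these are the elements through which interferon is known to act on such genes. Each is given on the strand of the gene, with the match in capitals:
Ddx58, chr4:40239804-40239833, minus strand, long form on the opposite strand: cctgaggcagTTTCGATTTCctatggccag
Ifih1, chr2:62646206-62646235, minus strand, long form: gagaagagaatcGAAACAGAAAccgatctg
Ifih1, chr2:62646348-62646377, minus strand, shorter form on the opposite strand: agaattcgcgTTCCCTTTCctgtttctcac
Samd9l, chr6:3399522-3399551, minus strand, shorter form: gtatcagaatcgaaactgGAAACTGAAgca

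The match in Ddx58 began 3 bases into the transcript, counted with the start site as base 1. Those in Ifih1 began at base 33 and 112 bases before the start, and that in Samd9l at base 39. Of 27025 genes with a promoter entry, 3.99% held the longer form and 9.76% the shorter form. A match is a run of letters and does not show that a factor binds there. Ddx58 and Ifih1, which both hold the longer form, differed in their scores: LSC stood above HSC for Ddx58, and these groups overlapped for Ifih1.

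Among the effectors, Samd9l had the widest range of the 7 genes over the 6 arrays, at 13.0 units. Samd9l is an interferon-induced gene whose human counterpart restrains the growth of blood cells and is altered in inherited marrow failure. It scored 16.1 and 13.0 in HSC, 18.8 and 22.0 in LSC, and 12.1 and 9.03 in Alox5-/- LSC. The 3 groups did not overlap, with LSC highest and Alox5-/- LSC lowest. HSC and Alox5-/- LSC were only narrowly apart once the arrays were scaled. HSC replicate 2 and Alox5-/- LSC replicate 1 were -3.39 and -3.58 when centred on array medians. After quantile normalization they were 12.32 and 12.15. LSC minus HSC was 5.85, Alox5-/- LSC minus LSC was -9.83 and Alox5-/- LSC minus HSC was -3.98, beside an SD of 2.22, 2.28 and 2.19 in HSC, LSC and Alox5-/- LSC (n = 2 each). Without any 1 array these stayed between 4.24 and 7.46, between -11.4 and -8.22, and between -5.55 and -2.41.

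Rtp4, which encodes a receptor transporter protein induced by interferon, scored 9.86 and 14.8 in HSC, 17.8 and 19.4 in LSC, and 13.9 and 12.8 in Alox5-/- LSC. Both LSC arrays were above the rest, and both Alox5-/- LSC arrays lay between the HSC arrays. For Rtp4 LSC minus HSC was 6.31 and Alox5-/- LSC minus LSC was -5.28. The HSC arrays were the least alike (SD 3.46, against 1.15 in LSC and 0.81 in Alox5-/- LSC), and without HSC replicate 1 LSC minus HSC was 3.86.

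Mx1 encodes a dynamin-like GTPase that blocks influenza and related viruses, and the C57BL/6 strain is known to carry a deletion in the gene that removes the working protein. It scored 28.5 and 20.0 in HSC, 17.3 and 16.4 in LSC, and 19.1 and 16.9 in Alox5-/- LSC. Both HSC arrays were above the rest, and LSC and Alox5-/- LSC overlapped as deposited. They did not overlap once the arrays were scaled. Centred on array medians, Mx1 was 1.85 and 0.91 in LSC and 3.41 and 2.39 in Alox5-/- LSC. After quantile normalization it was 17.4 and 16.5 in LSC and 18.6 and 18.1 in Alox5-/- LSC. In Mx1 LSC minus HSC was -7.37 and Alox5-/- LSC minus HSC was -6.26, and both rested largely on HSC replicate 1, being -3.15 and -2.04 without it. From LSC to Alox5-/- LSC the difference was 1.12, less than the SD of 1.60 in Alox5-/- LSC, and it was -0.02 without Alox5-/- LSC replicate 1.

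Irf7, the transcription factor that amplifies type I interferon production, scored 14.5 and 23.1 in HSC, 17.7 and 15.0 in LSC, and 14.5 and 19.3 in Alox5-/- LSC. Its 3 groups overlapped in every pair. For Irf7 LSC minus HSC was -2.43, Alox5-/- LSC minus LSC was 0.52 and Alox5-/- LSC minus HSC was -1.91, each smaller than the SD in HSC (6.09). The first of these was -6.74 without HSC replicate 1 and turned to 1.88 without HSC replicate 2, so its direction is not fixed. Irf7 had a larger spread between replicates than 97.1% of all genes.

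The members differed in both their spread within groups and their level. The SD pooled over the 3 groups was 1.29 for Ddx58 and 1.60 for Ifih1, near the median of 1.39 over all genes. It was 2.16 for Rtp4, 2.23 for Samd9l and 2.41 for Dhx58, larger than in 75.1%, 76.7% and 80.3% of genes, and 3.59 for Mx1, larger than in 94.5%. The mean score over the 6 arrays lay between 14.8 and 17.3 for all members other than Mx1, where the median gene had 16.3. Mx1 had 19.7, above 88.4% of genes.

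**Figure D2:**
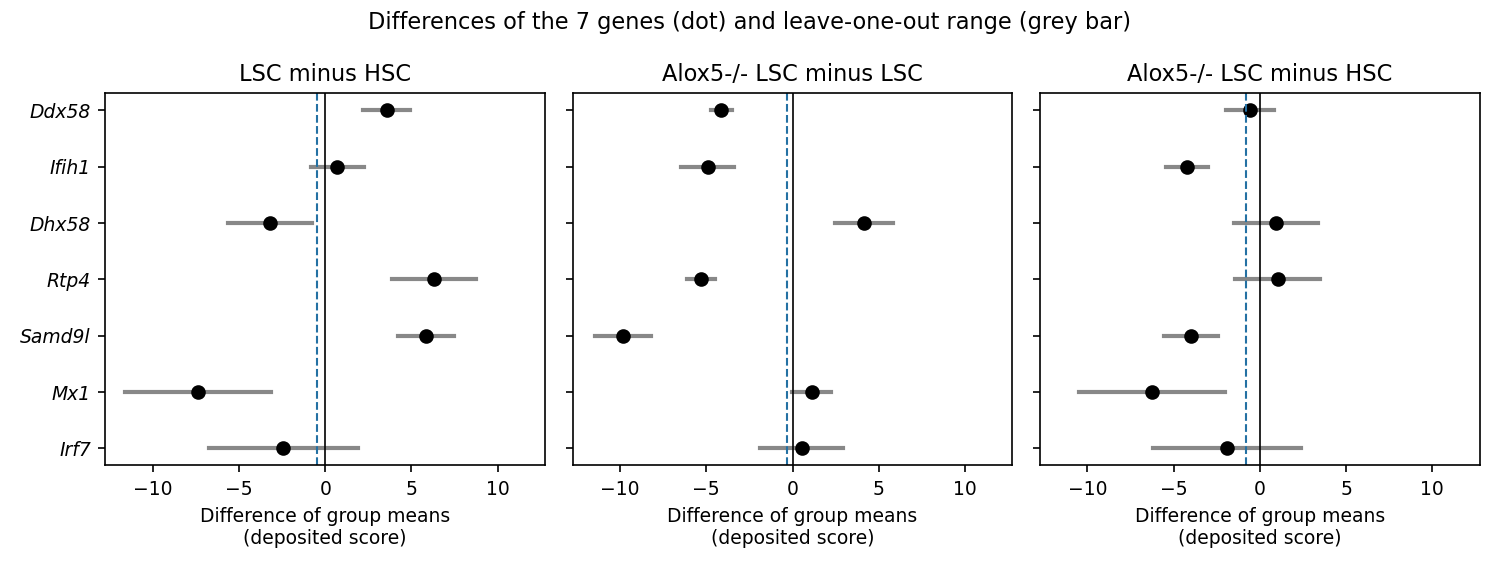
Difference of group means in deposited score for each of the 7 genes (dots) in the 3 comparisons, with a grey bar from the lowest to the highest value when 1 array was left out and a dashed line at the median difference of all genes. The bars of Ddx58, Rtp4 and Samd9l stay on opposite sides of 0 in the first 2 comparisons, as do those of Dhx58 in the reverse direction. Those of Irf7 cross 0 in all 3.

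In the deposited scores, Ddx58, Rtp4 and Samd9l were higher in LSC than in HSC without overlap of the groups, 3 of 7 genes. So were 10.1% of all genes. Dhx58 and Mx1 were lower without overlap, 2 of 7, as were 24.1% of all genes. In Alox5-/- LSC against LSC only Dhx58 of the 7 was higher without overlap, against 9.56% of all genes, and Ddx58, Ifih1, Rtp4 and Samd9l were lower, against 21.0%. In Alox5-/- LSC against HSC, Ifih1, Samd9l and Mx1 were lower, 3 of 7, against 28.9% of all genes, and 0 of 7 were higher, against 6.46%. The first 2 comparisons chose the members and the third is their sum, so these counts carry no test. They also depend on scaling. With centring or quantile normalization, LSC and HSC overlapped for Dhx58, and Mx1 was higher in Alox5-/- LSC than in LSC without overlap. The shares of all genes were counted on the deposited scores only. Centred on array medians, Samd9l differed by 6.33 in LSC minus HSC and by -9.42 in Alox5-/- LSC minus LSC, Rtp4 by 6.79 and -4.88, Ddx58 by 4.03 and -3.71, and Dhx58 by -2.73 and 4.56. Smaller differences moved by more than 1.5 times in size with centring or quantile normalization. Ifih1 in LSC minus HSC went from 0.69 to 1.17 with centring and 1.29 with quantile normalization, and Irf7 in Alox5-/- LSC minus LSC from 0.52 to 0.93 and 1.1. In Alox5-/- LSC minus HSC, Dhx58 went from 0.95 to 1.83 and 1.62, Rtp4 from 1.03 to 1.91 and 2.06, and Irf7 from -1.91 to -1.02 and -0.78. Ddx58 changed sign there, as given above.

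Across the 6 arrays the 7 genes did not move as 1 group. Of their 21 pairs, 6 had a Pearson correlation over 0.5 and 6 under -0.5, and the median was 0.03. Ddx58 was closest to Rtp4 (0.92), then to Ifih1 (0.73) and Samd9l (0.72). Dhx58 ran against Ddx58 (-0.80) and Rtp4 (-0.80) and with Mx1 (0.65). Irf7 was nearest to Ifih1 (0.36). These are descriptions over 6 arrays that share their group structure and their scaling.

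**Figure D3:**
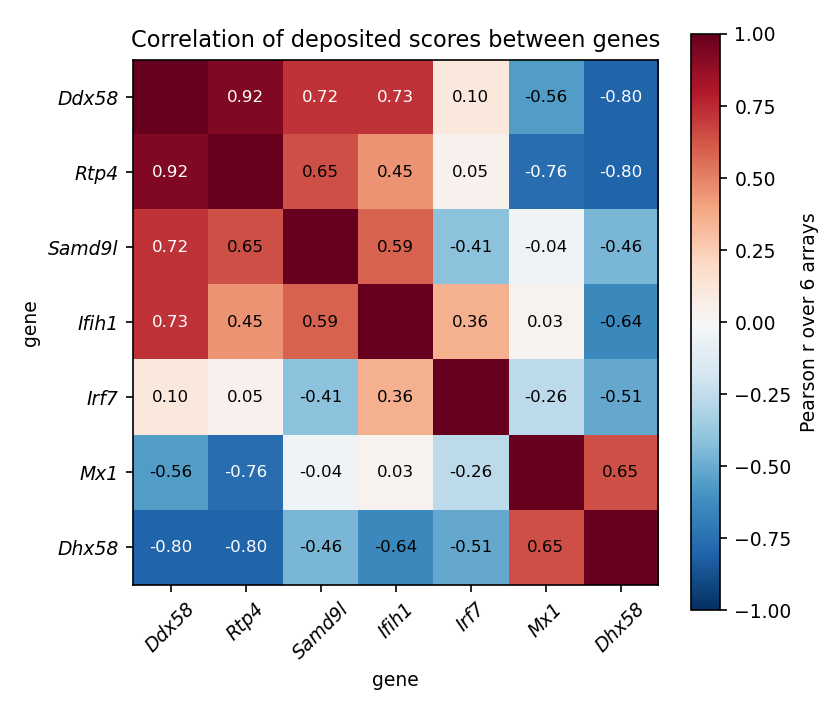
Pearson correlation of the deposited scores over the 6 arrays for each pair of the 7 genes, with red for positive and blue for negative values. Ddx58, Rtp4, Samd9l and Ifih1 are positively correlated with each other (0.45 to 0.92), and Dhx58 is negatively correlated with all of these.

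The genes with the scores most like each member over the 6 arrays were no interferon genes of the lists used here. They were Myo1a and Sft2d1 for Ddx58 (r of 0.999 and 0.998), Fam24b and Krtap4-16 for Ifih1, Mtrf1l and Mettl26 for Dhx58, and Olfr1195 and Calhm4 for Rtp4. For Samd9l they were Tram2 (0.996) and Thegl, for Mx1 Bud31 and Rilpl2, and for Irf7 Commd3 and Mmp1b. Each member had between 117 (Rtp4) and 287 (Ifih1) genes with r over 0.9. With 6 arrays and 19934 genes many profiles coincide, and the likeness describes these arrays.

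The rest of the pathway was read from 3 lists without the 7 genes, with 110 of 123 listed genes measured. They hold 21 adaptors, kinases and other sensors, 25 genes of interferons, their receptors and signalling, and 64 other interferon-induced effectors. By limma with Benjamini-Hochberg adjustment over all genes, 0 of the 110 passed in any of the 3 comparisons, as did 0 of 19934 genes (0.0% in each). At an unadjusted limma p under 0.05, 5 of the 110 were lower and 0 higher in LSC than in HSC, against 3.74% and 0.968% of all genes. In Alox5-/- LSC against LSC, 2 were lower and 1 higher, against 2.59% and 0.813%. In Alox5-/- LSC against HSC, 11 were lower and 2 higher, against 6.24% and 0.742%. The median difference of the 110 genes was -0.94, -0.16 and -1.26 in these comparisons, beside -0.47, -0.30 and -0.78 for all genes and 0.69, -4.12 and -1.91 for the 7 genes.

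The pattern of Ddx58, Rtp4 and Samd9l, both LSC arrays above the other 4, was held by 2 of the 110 pathway genes (1.82%, against 4.8% of all genes): Ifi35 and Slfn8. The pattern of Dhx58 in the deposited scores, both LSC arrays below, was held by 3 (2.73%, against 4.97%): Myd88, Oas3 and Ifitm3. Ifi35, an interferon-induced leucine zipper protein, scored 16.4 and 18.8 in HSC, 21.4 and 19.2 in LSC, and 16.7 and 15.1 in Alox5-/- LSC. Slfn8, of the Schlafen family of growth regulators, scored 22.0 and 21.9 in HSC, 22.8 and 22.9 in LSC, and 18.3 and 17.4 in Alox5-/- LSC. LSC and HSC were close for Slfn8, and the low Alox5-/- LSC pair was its main feature, as for Ifih1. Against LSC, Alox5-/- LSC differed by -4.99 for Slfn8 and by -4.41 for Ifi35, and neither passed (limma adjusted p = 1.00 for each).

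Among the signalling genes the smallest p in LSC against HSC belonged to Irf2, which encodes a factor that competes with IRF1 at interferon response elements. Irf2 scored 19.2 and 19.7 in HSC, 12.1 and 11.7 in LSC, and 14.3 and 11.2 in Alox5-/- LSC. Both BCR-ABL groups lay below HSC, a pattern that Mx1 alone showed among the 7 genes. Irf2 had a difference of -7.54 in LSC minus HSC (limma adjusted p = 0.866) and of -6.70 in Alox5-/- LSC minus HSC (adjusted p = 0.707). Irf8, a factor of monocyte and dendritic cell development, scored 18.4 and 16.2 in HSC, 12.5 and 12.3 in LSC, and 11.0 and 14.0 in Alox5-/- LSC, with LSC minus HSC at -4.87 (limma adjusted p = 0.999). Irf5, which acts downstream of Toll-like receptors, ran the other way: 11.9 and 13.1 in HSC, 12.5 and 15.0 in LSC, and 16.9 and 17.4 in Alox5-/- LSC. For Irf5 Alox5-/- LSC minus LSC was 3.36 (limma adjusted p = 1.00), and Alox5-/- LSC minus HSC was 4.62 (adjusted p = 0.707).

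Among the other effectors, Trim34a, of the tripartite motif family, scored 26.7 and 27.4 in HSC against 19.6 and 21.2 in LSC and 19.2 and 21.0 in Alox5-/- LSC. Its LSC minus HSC was -6.68 (limma adjusted p = 0.999). Ifitm3, which blocks entry of enveloped viruses, scored 5.06 and 7.31 in HSC, 3.18 and 3.60 in LSC, and 3.92 and 3.81 in Alox5-/- LSC. Oas1a, an oligoadenylate synthetase activated by double-stranded RNA, had high and low arrays within the LSC group: 16.8 and 22.4 in HSC, 20.2 and 5.66 in LSC, and 5.37 and 4.07 in Alox5-/- LSC. Its Alox5-/- LSC minus HSC of -14.9 had a limma adjusted p of 0.707. Ifit3, whose protein takes part in binding of foreign RNA, scored 16.6 and 13.5 in HSC, 17.8 and 19.8 in LSC, and 24.1 and 17.5 in Alox5-/- LSC, so that it did not share the low Alox5-/- LSC values of Samd9l.

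The remaining named pathway genes are given by their differences. LSC minus HSC was 2.78 for the endosomal RNA sensor Tlr3 and 3.34 for Trim30a. Alox5-/- LSC minus LSC was 2.74 for Oas3, 4.08 for Myd88, the adaptor of most Toll-like receptors, and 2.14 for the immunoproteasome subunit Psmb9. It was -2.86 for Parp10 and -2.42 for Shisa5. Alox5-/- LSC minus HSC was 3.28 for the exonuclease Isg20, 3.32 for Ifitm1 and -4.17 for Shisa5. None of these passed (limma adjusted p from 0.707 to 1.00).

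**Figure D4:**
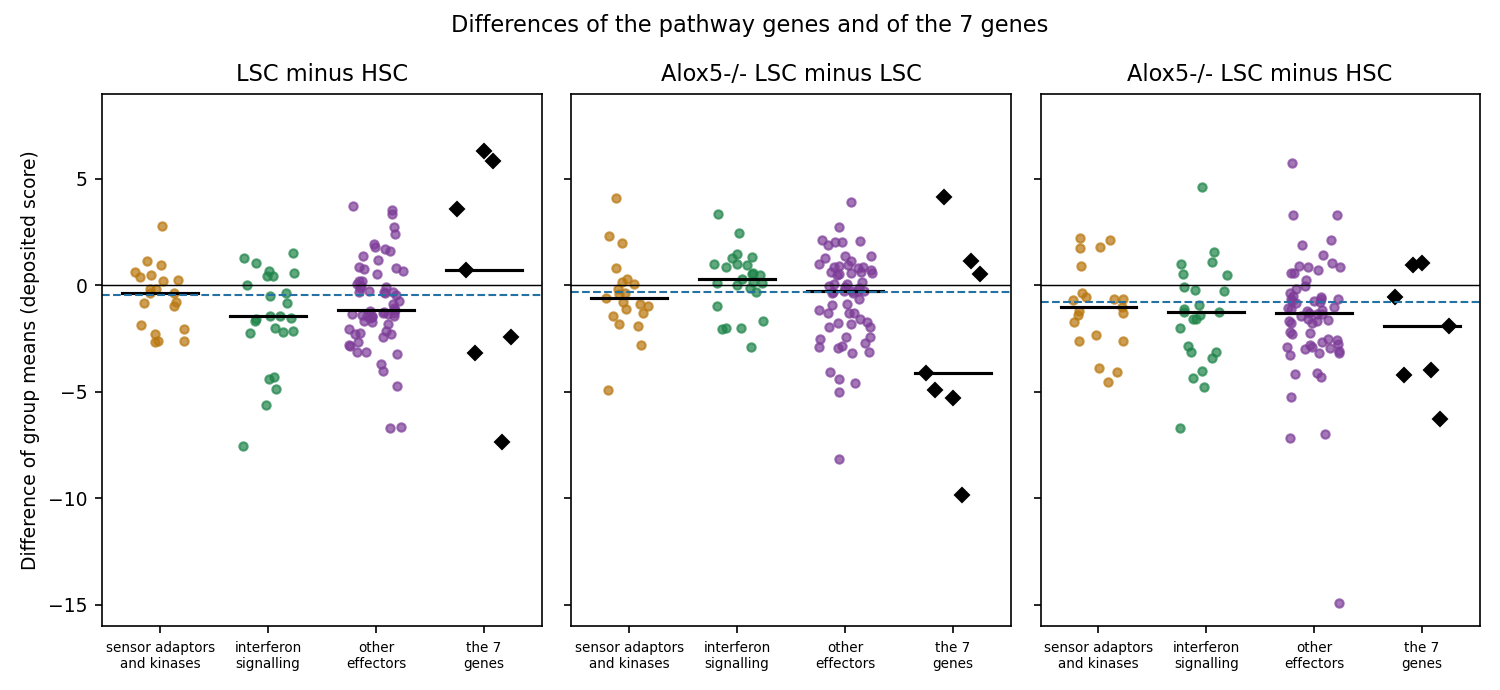
Difference of group means in deposited score for 110 pathway genes in 3 lists (circles) and for the 7 genes (diamonds), with a black line at each median, a thin line at 0 and a dashed line at the median of all genes; points are spread sideways for legibility. The 7 genes were chosen on the first 2 comparisons, where their medians are 0.69 and -4.12 and those of the lists lie between -1.45 and -0.37 and between -0.58 and 0.28.

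Of 27 pathway genes that held the longer form in their start windows, out of 91 with an entry (29.7%, against 3.99% of all genes with an entry), some had high and others low LSC scores. These lists are made of interferon genes, so the share describes the lists. Slfn8, Irf2 and Oas3 are shown as examples of 3 different orders of the groups, to compare with Ddx58 and Ifih1:
Slfn8, chr11:83020839-83020868, minus strand, on the opposite strand: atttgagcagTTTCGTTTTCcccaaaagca
Irf2, chr8:46739495-46739524, plus strand: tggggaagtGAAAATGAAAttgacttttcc
Oas3, chr5:120777715-120777744, minus strand: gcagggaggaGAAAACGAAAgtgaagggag

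The Slfn8 match lay 48 bases before 1 of its listed start sites, that of Irf2 241 bases before and that of Oas3 75 bases before. By group means, LSC was the highest group for Slfn8 and the lowest for Irf2 and Oas3, though the LSC arrays of Irf2 lay within the range of the Alox5-/- LSC arrays. The 3 genes were picked for these orders, so nothing is read from them.

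Markers of other blood cells that a sort may carry along were read over the same arrays. The 7 measured plasmacytoid dendritic cell markers, cells known for making interferon, had array medians of 15.9 and 16.4 in HSC, 15.7 and 13.8 in LSC, and 14.6 and 14.0 in Alox5-/- LSC, and 0 of them had both LSC arrays above or below the rest. Bst2 of this list also stands among the effectors. Of 9 monocyte and macrophage markers 2 had both LSC arrays below the rest, as had 1 of 10 T and NK cell markers and 1 of 7 B cell markers, and 1 of 5 erythroid markers had both above. Among all genes, 4.97% had both LSC arrays below the rest and 4.8% had both above. Of the 5 lists, the B cell markers had the largest median difference in LSC minus HSC, -2.36, or -1.89 relative to all genes, with 3 of 7 above 0 and 4 below. Their array medians were 14.1 and 15.0 in HSC, 14.1 and 13.9 in LSC, and 15.1 and 13.3 in Alox5-/- LSC. At an unadjusted limma p under 0.05, Cd79a and Vpreb1 were lower and Vpreb3 higher in LSC than in HSC. The monocyte and macrophage markers likewise had 2 lower and 1 higher, and the erythroid markers 1 higher. The T and NK cell and plasmacytoid dendritic cell lists had 0. Over all genes 3.74% were lower and 0.968% higher at that p. Cd79a, a signalling chain of the B cell receptor, scored 23.7 and 28.2 in HSC, 16.9 and 13.9 in LSC, and 15.1 and 11.5 in Alox5-/- LSC. Vpreb3, a gene of early B cells, scored 8.71 and 9.59 in HSC, 17.3 and 17.8 in LSC, and 18.4 and 14.3 in Alox5-/- LSC. Both HSC arrays lay above the other 4 for Cd79a and below them for Vpreb3. The median of the other 4 lists in LSC minus HSC ran from -1.22 (erythroid) to -0.58 (plasmacytoid dendritic). No marker of these lists was called by limma after adjustment. The part of such cells in the differences of the 7 genes was not tested, and in a bulk sample fewer cells of a type and less RNA per cell cannot be told apart.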

How the data were processed

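The table deposited by the authors holds 1 score per probe set and array. Affymetrix Expression Console 1.1 and RMA are named, per the submitters' processing notes. The unit of the score, its genome build and its filters are not given in the sources used here, and RMA's log2 scale does not match its range. The table lists 35557 probe sets, 1058 of them without a value on any array. The platform annotation gave 1 symbol to 21789, several to 1621 (not used), and did not list 12147. For genes with several probe sets, that with the highest mean was kept, which left 19934 genes. The design assumed log2 or a score of like range, and the scores were tested as deposited. Genes were fitted with limma 3.58.1 in R 4.3.3, with a mean per group over all 6 arrays, 3 residual degrees of freedom and a prior variance following the mean. Tests were two-sided and adjusted by Benjamini-Hochberg at 0.05. A run on simulated data required only that most genes with the largest shift set there be called, with the right sign. It does not show that differences of the sizes described here could be called. The number of arrays limits the precision. Depth does not apply to arrays.

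The members and the lists were chosen with earlier results of these data known. Named were the members, gate and construct genes, in each comparison the 4 pathway genes of lowest p among those with higher and among those with lower scores, and 2 like genes per member by Pearson r, unnamed models left out. Alternatives were quantile normalization, centring, the lowest-mean probe set, every probe set, a filter at the 25th percentile, 2 groups only, no variance trend, the replicate number as a block and leaving out each array.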

Additional observations from a re-analysis of the deposited data

How the results depend on the processing

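The count of genes passing an adjusted p under 0.05 by limma was 0 in each comparison under all 14 alternatives, for all genes and for the 110 pathway genes. At an unadjusted p under 0.05 it was 939, 678 and 1392 for LSC against HSC, Alox5-/- LSC against LSC and Alox5-/- LSC against HSC. Over the alternatives it ran from 602 to 1704, from 484 to 1365 and from 804 to 2223. The share with lower scores was 79.4%, 76.1% and 89.4% as deposited, 59.3%, 52.2% and 56.7% after quantile normalization, and 60.7%, 49.8% and 55.8% after centring. In both comparisons with Alox5-/- LSC this direction rested on 1 array. Without Alox5-/- LSC replicate 2, most genes at that p had higher scores in Alox5-/- LSC. With every probe set, where 34499 features were tested and not 19934, the counts were 1704, 1365 and 2223. Without HSC replicate 1 LSC against HSC had 1566 and without LSC replicate 1 it had 602. Alox5-/- LSC against LSC had 1307 without Alox5-/- LSC replicate 2, and Alox5-/- LSC against HSC 804 without HSC replicate 2. The pathway genes at that p ran from 3 to 14, 2 to 9 and 7 to 22.

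Signs of the 7 genes held under all alternatives for Ddx58, Dhx58, Rtp4, Samd9l and Mx1 in LSC minus HSC and for Ddx58, Ifih1, Dhx58, Rtp4 and Samd9l in Alox5-/- LSC minus LSC. In Alox5-/- LSC minus HSC they held for Ifih1, Samd9l and Mx1, while Rtp4 was -1.42 without HSC replicate 1, Dhx58 -1.49 and Irf7 2.4 without HSC replicate 2, and Ddx58 0.81 without it. All 7 passed the percentile filter. Ifitm1 in Alox5-/- LSC minus HSC was -2.11 with its lowest-mean probe set, and the cause was not tested.

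The arrays share replicate numbers across groups, but with 2 per group the numbers are not shown to pair them. Deviations of same-numbered arrays correlated at 0.0002, -0.06 and -0.06 over genes. With the replicate block, 0 genes passed in each comparison, and 793, 581 and 1160 genes had an unadjusted p under 0.05.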
